A study of Mus musculus with 2 samples.

Results

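Permissive-only promoter regions are promoter peaks that appear in the most lenient peak list of a set of haematopoietic stem cell libraries and in none of its thresholded lists. They were chosen by merging overlapping peaks of the replicated list of both replicates, taking the summit of the peak of highest signal, and keeping regions whose summit lay within 1 kb of a protein-coding transcription start site (TSS) and that overlapped no peak of the 4 lists thresholded by the irreproducible discovery rate (IDR). The rule kept 4442 regions out of 75998 in the replicated list. They were 25.3% of the 17525 promoter regions of that list, and the other 13083 promoter regions held a thresholded peak. Since the members were chosen by their absence from the thresholded lists, their weak signal and low IDR score restate the choice and carry no test.

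The 2 libraries, both of 1 group, were made by ATAC-seq from haematopoietic stem cells. The mice were adults of the C57BL/6J strain aged 5 to 6 weeks. ATAC-seq uses a transposase that inserts adapters into open chromatin, so that peaks mark accessible DNA. Both libraries carried the same donor identifier, so the spread between them may be technical, and sex was not collected. The labels named no surface markers for the sort and gave 50000 starting cells for replicate 2 but no starting quantity for replicate 1. No other cell type or condition was used here, so the members were compared with the thresholded promoter regions of the same libraries.

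A promoter is the stretch of DNA where transcription starts, and nucleosomes there are commonly displaced when transcription factors and the polymerase bind. Many mammalian promoters lie in CpG islands, DNA that has escaped methylation and kept its CG dinucleotides, and such promoters are often accessible whether or not the gene is highly transcribed. CpG-poor promoters are more often open only in particular cell types. The IDR ranks peaks by how well their order repeats between replicates.

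The sequences below show the 6 strongest members at genes with no thresholded promoter peak among those whose window held no annotated UTR and whose chromosome is reported here. Each runs 75 bp to either side of the summit in GRCm38.p6 (RefSeq), on the gene's strand, and capitals mark matches to any of the 22 motifs searched.
Vmn2r4, chr3:64414373-64414523 (-): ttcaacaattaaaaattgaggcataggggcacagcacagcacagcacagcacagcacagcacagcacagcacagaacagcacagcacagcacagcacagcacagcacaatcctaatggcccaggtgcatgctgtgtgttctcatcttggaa
Exph5, chr9:53301391-53301541 (+): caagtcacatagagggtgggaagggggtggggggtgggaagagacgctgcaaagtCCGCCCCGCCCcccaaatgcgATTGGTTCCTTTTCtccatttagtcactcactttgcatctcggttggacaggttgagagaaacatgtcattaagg
Tnfaip8l3, chr9:54068951-54069101 (-): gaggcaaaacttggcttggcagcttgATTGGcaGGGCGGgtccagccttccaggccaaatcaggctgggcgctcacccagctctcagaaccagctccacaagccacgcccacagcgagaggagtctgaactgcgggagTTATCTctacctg
Lhfpl4, chr6:113193860-113194010 (-): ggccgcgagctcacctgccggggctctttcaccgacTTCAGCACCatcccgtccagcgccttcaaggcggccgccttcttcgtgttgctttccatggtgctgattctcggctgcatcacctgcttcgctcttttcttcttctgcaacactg
Zfp541, chr7:16071014-16071164 (+): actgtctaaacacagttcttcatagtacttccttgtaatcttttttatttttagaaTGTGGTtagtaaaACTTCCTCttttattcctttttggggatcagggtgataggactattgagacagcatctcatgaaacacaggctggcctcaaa
4930578C19Rik, chrX:18461378-18461528 (-): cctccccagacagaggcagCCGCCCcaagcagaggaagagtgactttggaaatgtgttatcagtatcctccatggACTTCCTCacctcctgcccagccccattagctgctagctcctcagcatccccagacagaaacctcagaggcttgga

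The Vmn2r4 window, in an intron 920 bp downstream of a TSS, is in a region that was 87.0% repeat-masked and held no motif match. Vmn2r4 belongs to a family of vomeronasal receptors with near-identical copies, so its placement is uncertain. The Exph5 window, between genes, held a GC box, a CCAAT box and an interferon response element (GAAANNGAA). The Tnfaip8l3 window, between genes, held a GC box, a CCAAT box and a GATA match. The Lhfpl4 window, in an exon, held a partial REST site (TTCAGCACC). The Zfp541 window, with its summit at -832 bp, upstream of the TSS, and in an intron of an annotated gene, held RUNX and PU.1 matches. The 4930578C19Rik window, between genes, held a GC box and a PU.1 match. Of these 6 windows, that of Lhfpl4 was CpG-rich by the measure given below and the other 5 were not.

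The next set holds the strongest printable window of 5 stem cell marker genes with permissive-only opening, shown because these genes are used to recognise the cells studied.
Procr, chr2:155751514-155751664 (+): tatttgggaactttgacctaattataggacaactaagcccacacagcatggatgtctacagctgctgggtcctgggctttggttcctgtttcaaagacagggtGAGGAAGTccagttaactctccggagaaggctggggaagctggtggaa
Thy1, chr9:44043909-44044059 (+): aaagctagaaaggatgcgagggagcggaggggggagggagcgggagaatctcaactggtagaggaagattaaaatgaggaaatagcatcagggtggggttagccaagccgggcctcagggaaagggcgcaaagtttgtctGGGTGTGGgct
Fgd5, chr6:91979744-91979894 (+): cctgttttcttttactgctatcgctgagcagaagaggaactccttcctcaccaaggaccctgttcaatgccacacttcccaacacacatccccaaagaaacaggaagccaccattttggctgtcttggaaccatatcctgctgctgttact
Neo1, chr9:59036680-59036830 (-): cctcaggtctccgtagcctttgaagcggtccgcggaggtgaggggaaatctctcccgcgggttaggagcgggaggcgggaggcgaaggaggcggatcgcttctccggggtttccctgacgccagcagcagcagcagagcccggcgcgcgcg
Cd27, chr6:125237637-125237787 (-): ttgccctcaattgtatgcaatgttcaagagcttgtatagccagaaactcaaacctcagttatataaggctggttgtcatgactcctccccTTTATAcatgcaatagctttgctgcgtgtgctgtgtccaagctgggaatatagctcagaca

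The Procr window, in an intron, held a PU.1 match, and the Thy1 window, also in an intron, held a KLF match (CCACACCC). The Cd27 window, with its summit at -702 bp, upstream of the TSS, held a match to the TATA box (TATAAA). It was in an intron of an annotated gene, since introns here are those of any gene. The Fgd5 window (intron) and the Neo1 window (between genes) held none of the 22 motifs. The Neo1 window is that of its weaker region, with a signal of 3.20. The Neo1 and Thy1 windows were CpG-rich and the Procr, Fgd5 and Cd27 windows were CpG-poor.

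The signal that the authors deposited for each peak had a median of 3.48 in permissive-only regions, with a middle range of 2.92 to 4.10 and extremes of 1.49 and 8.33. Thresholded promoter regions had a median of 8.66 and a middle range of 6.31 to 11.2. The median over all regions of the replicated list was 5.50, and 122 members exceeded it. Members were also narrower, with a median width of 374 bp, against 794 bp in thresholded promoter regions. A single peak made up 64.3% of members and 33.8% of thresholded promoter regions. These values follow from the choice of members and are given as a description.

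The replicates' own lists showed how far each member was seen in each library. The pseudoreplicated list of replicate 1, a list called on that library alone, held 2566 members (57.8%), and that of replicate 2 held 1994 (44.9%). Both lists held 1341 members (30.2%, 95% Wilson interval 28.9 to 31.6), and neither held 1223 (27.5%). Of thresholded promoter regions, 96.4% were in both lists and 0.0764% in neither. Intervals here and below cover counting error only. Among the 1341 members in both lists, the median signal was 4.28 in replicate 1 and 3.56 in replicate 2, and replicate 1 was higher in 991 of them. Across these regions, which share 2 libraries, Spearman's rho between the replicates was 0.251. It was 0.797 across the 12607 thresholded promoter regions in both lists, where the median signal was 9.83 in replicate 1 and 6.88 in replicate 2 and replicate 1 was higher in 11684. Of the 4 lists that the rule used, the conservative list was taken to compare the replicates. Members also span a narrow range of low signal, so their lower rho cannot be read apart from their choice.

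In the ranked list taken to compare the replicates, from its match to the conservative list, a score of 540 marks the threshold. Members had a median score of 147, which was also their lowest value, and the highest was 539. The members just inside the rule were at Gskip (539), 4930578C19Rik (536), Sept6 (536), Ebf2 (536) and Phc2 (534). The thresholded regions just outside it, all at 540, were at Gpr65, Zfp692, Lipe, Pigq and Plxna2. Their signals overlapped, at 4.38, 6.25, 5.02, 4.33 and 4.52 for the 5 members and 4.21, 4.71, 4.89, 5.19 and 5.70 for the 5 thresholded regions. In the other ranked list, taken to be that of pooled pseudoreplicates, 2 members had a score of 540, although they were in no thresholded list.

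The members formed 2 nearly equal classes by what else was open at their genes. For 2098 members (47.2%) no gene within 1 kb had a thresholded peak at any TSS, and these are called sole regions. For 2325 members (52.3%) every gene within 1 kb also had a thresholded peak at one of its TSSs, and these are called additional regions. The remaining 19 lay within 1 kb of a gene of each kind. A thresholded peak lay within 1 kb of 1635 additional regions (70.3%), and for the other 690 (29.7%) it lay farther away.

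Sole and additional regions sat in different places. Summits lay within 150 bp of a TSS in 48.9% of sole regions and 27.3% of additional regions, against 71.7% of thresholded promoter regions. Summits lay more than 150 bp downstream of the TSS in 31.1% of sole and 51.3% of additional regions, against 13.3% of thresholded promoter regions. The summit of 52.2% of additional regions was in an intron, against 27.9% for sole regions and 22.0% for thresholded promoter regions. Where the thresholded peak was near, 58.8% of additional regions lay more than 150 bp downstream. Where it was farther away, 43.0% of them lay within 150 bp of their own TSS. The median gap to the nearest thresholded peak was 335 bp for additional regions and 14176 bp for sole regions.

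**Figure D1:**
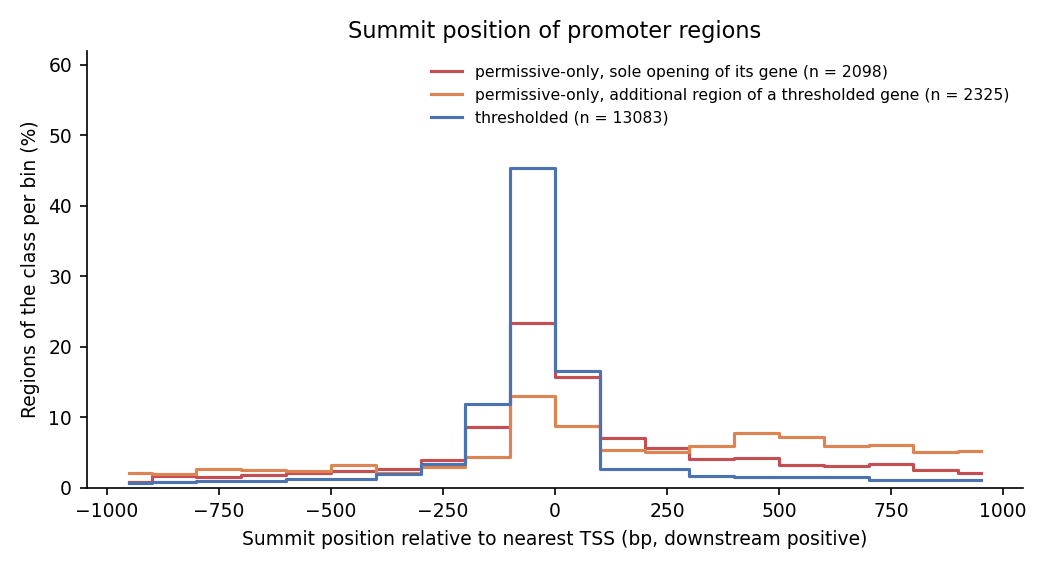
Position of the summit relative to the nearest TSS, in bins of base pairs (x), as the percent of regions of each class (y). Thresholded regions peak just upstream of the TSS, sole permissive-only regions have a lower peak there, and additional permissive-only regions extend through the first kilobase downstream.

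The windows of the 10 members of highest signal were all CpG-poor. The highest, at Myo18a, which encodes an unconventional myosin, had a signal of 8.33 in the replicated list, 6.91 in replicate 1 and 7.84 in replicate 2. Myo18a also had a thresholded peak at another place. The region at Tarm1, a receptor of myeloid cells, had 6.89 in the replicated list and 9.26 in replicate 1, and was absent from the list of replicate 2. The region at Bcl2a1a, an anti-apoptotic gene, had 6.83 and 9.12 in the same 2 lists and was absent from the list of replicate 2. Bcl2a1a has near-identical copies, so its signal is uncertain.

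The Vmn2r4 region had 6.73 in the replicated list, 5.92 in replicate 1 and 5.95 in replicate 2. The region shared by Gimap7, a GTPase of lymphocytes, and Gm28053 had 6.73, 4.61 and 6.90 in the same order of lists. Dcstamp, needed for the fusion of osteoclasts, had 6.58, 8.22 and 4.06. Adgre1, which encodes the macrophage antigen F4/80, had 6.57, 9.21 and 3.81. Dcstamp and Adgre1 were higher in replicate 1, as most promoter regions in both lists were, Gimap7 was higher in replicate 2 and Vmn2r4 was level. The other 3 were at Itsn1, Exph5 and Ccdc160, each with 6.57 in the replicated list. The 5 lowest members were at Arid2 (1.49), near both Abhd15 and Trp53i13 (1.68), at Phlpp1 (1.75), near both Xrcc6 and Desi1 (1.77) and at Gpr146 (1.78). All of these genes had a thresholded peak elsewhere, and none of the 5 regions was in either replicate's list.

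Counted by gene, 1746 of 21853 protein-coding genes (7.99%, 95% Wilson interval 7.64 to 8.36) had permissive-only promoter opening, meaning a member within 1 kb of a TSS and no thresholded peak there. Thresholded promoter peaks were found at 12611 genes (57.7%), and the other 7496 (34.3%) had no promoter peak. The count of permissive-only genes was 3488 without replicate 1, from the lists of replicate 2 alone, and 2847 when the conservative list alone removed regions. Of the 1746 genes, 1389 had 1 permissive-only region and 308 had 2. Gfra1, the receptor subunit for the neurotrophic factor GDNF, had 5, with signals of 2.71 to 4.29. Nedd4l and Rreb1 also had 5 such regions, and Acot7 and 2900026A02Rik were among 22 genes with 4. Nedd4l, Rreb1, Acot7 and 2900026A02Rik had thresholded promoter peaks too.

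Transcription factors of stem cells mostly had thresholded promoters, and 8 surface and marker genes were permissive-only. Of 25 transcription factors of stem cells, 23 had a thresholded promoter peak and 2 (8.0%) were permissive-only, close to the 7.99% of all genes. Prdm16, a factor needed to maintain stem cells, had a signal of 2.98 at a region 48 bp downstream of its TSS and was in neither replicate's list. Gata2, a zinc finger factor needed for stem cell survival, had a signal of 2.35 in the replicated list, 2.39 in replicate 1 and 2.49 in replicate 2. Its region lay 361 bp downstream of a TSS, and the nearest thresholded peak was 4091 bp away. Gata2 was thus detected in both libraries at a low and even level.

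Of 25 surface and marker genes of stem cells, 8 (32.0%, 17.2 to 51.6) were permissive-only, against 7.99% of all genes. Of the others, 16 were thresholded and Vwf had no promoter peak. Slamf1, which encodes CD150, had 4.42 in the replicated list and 5.18 in replicate 1. Tek, the angiopoietin receptor, had 4.39 and 4.89 in those lists, and Thy1, a surface glycoprotein, had 3.64 and 4.56. These 3 were absent from the list of replicate 2. Procr, the endothelial protein C receptor, was in both replicates' lists, with 4.4 in the replicated list, 4.67 in replicate 1 and 4.28 in replicate 2.

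Fgd5, a guanine nucleotide exchange factor, was also in both, with 3.25 in the replicated list, 3.56 in replicate 1 and 2.88 in replicate 2. Ly6a, which encodes the stem cell antigen Sca-1, had 4.11 in the replicated list, and Neo1, the receptor neogenin, had 3.36. Neither Ly6a nor Neo1 was in a replicate's own list. Cd27, a receptor of the tumour necrosis factor family, had 2.90 in the replicated list and 2.79 in replicate 2 alone. In all, 2 of the 8 genes were in both replicates' lists, and 3 of the 8 summits lay within 150 bp of a TSS.

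Markers of endothelium, which shares several surface genes with stem cells, were permissive-only in 6 of 14 cases (42.9%, 21.4 to 67.4). Among all genes the share was 7.99%. Tie1, an orphan receptor kinase, had 5.29 in the replicated list, 5.92 in replicate 1 and 4.28 in replicate 2. Eng, a co-receptor for transforming growth factor beta, had 4.54, 5.39 and 3.34 in the same order. Plvap, a component of capillary diaphragms, had 5.13 in the replicated list and 6.34 in replicate 1. The VEGF receptor genes Kdr and Flt1 had 3.61 and 2.77 in the replicated list, and Tek belongs to this list as well. Of the other 8 endothelial markers 7 were thresholded, and Stab2 had no peak.

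**Figure D2:**
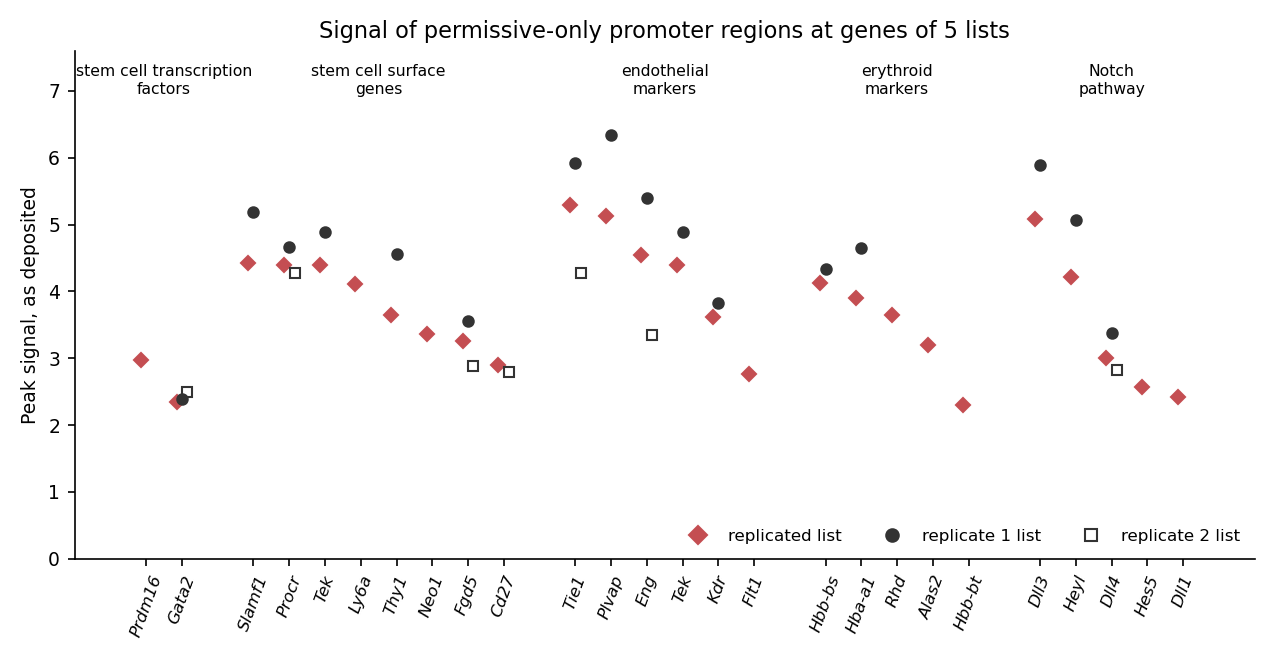
Deposited peak signal (y) of the highest permissive-only region of each gene with permissive-only opening in 5 lists (x). Red diamonds are the replicated list, filled circles the list of replicate 1 and open squares that of replicate 2, and a missing symbol means no peak in that list. Replicate 2 symbols are missing for most genes, and Gata2 has all 3 values close together.

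Among markers of mature blood cells, erythroid markers were permissive-only in 5 of 20 cases (25%, 11.2 to 46.9), against 7.99% of all genes. They were Hbb-bs with a signal of 4.13, Hba-a1 with 3.90, Rhd with 3.64, Alas2 with 3.20 and Hbb-bt with 2.30. Alas2 makes the enzyme of the first step of haem synthesis in red cells, and Rhd a blood group protein. The globin genes Hbb-bs, Hba-a1 and Hbb-bt have near-identical copies and their values are uncertain. None of the 5 was in both replicates' lists, and 3 were in neither.

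Megakaryocyte markers were permissive-only in 3 of 18 cases (16.7%, 5.84 to 39.2), at Tubb1 (4.27), Selp (3.85) and Mpig6b (3.56). Mast cell, basophil and eosinophil markers were so in 3 of 13 (23.1%, 8.18 to 50.3), at Prg2 (4.17), Il5ra (4.17) and Mcpt8 (3.52), while 8 of the 13 had no peak. Natural killer cell markers were so in 3 of 13 (23.1%, 8.18 to 50.3), at Klrb1c (3.87), Tbx21 (3.47) and Eomes (2.88). T cell markers were so in 2 of 20 (interval 2.79% to 30.1%), at the kinase genes Zap70 (4.93) and Lck (3.72). Granulocyte and monocyte markers were so in 1 of 22 (4.55%, 0.807 to 21.8), Mpo (3.51), the myeloperoxidase gene. No B cell marker out of 19 was permissive-only (0%, up to 16.8), and 12 of them had no peak. The intervals of these 7 lists overlap one another, and those of the megakaryocyte, T cell, granulocyte and B cell lists include the 7.99% of all genes.

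Hepatocyte markers had 1 permissive-only gene of 12, Ahsg (4.20), and striated muscle markers 1 of 12, Tnnt3 (4.05). Each is a share of 8.33% (1.49 to 35.4), near the 7.99% of all genes. Neural markers had 3 of 14 (21.4%, 7.57 to 47.6), an interval that includes 7.99%, at Syt1 (4.49), Tubb3 (2.61) and Gad1 (2.30). Stromal and bone markers had 4 of 15 (26.7%, 10.9 to 52.0), at Col1a2 (5.20), Foxc1 (3.93), Cxcl12 (3.74) and Alpl (3.25). Fewer open cells and less opening per cell cannot be told apart in these bulk libraries. Whether cells of other types contributed to these peaks was not tested.

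Genes used in every cell type had thresholded promoters. None of 20 housekeeping genes and none of 20 cell cycle genes was permissive-only (0%, up to 16.1 in each), and all 40 had a thresholded promoter peak. The same held for all 72 cytosolic ribosomal protein genes and all 75 mitochondrial ones. Among 39 proteasome subunit genes 37 were thresholded and 2, Psma8 and Psmb11, had no peak. Cytokine receptor genes had 1 permissive-only member of 19 (5.26%, 0.935 to 24.6), Lifr (4.12), and the other 18 were thresholded. That interval includes the 7.99% of all genes. At the other end, 1060 of 1091 olfactory receptor genes had no promoter peak. Another 11 (1.01%, against 7.99% of all genes) were permissive-only, led by Olfr110 (5.29), Olfr1342 (5.13) and Olfr545 (5.13). Receptors of this family have near-identical copies, and these values are uncertain.

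Developmental transcription factor families were set against the 7.99% of all genes. SOX factors were so in 7 of 19 cases (36.8%, 19.1 to 59.0), led by Sox13 (3.79), Sox15 (3.65) and Sox9 (3.29). NKX homeobox factors were so in 5 of 14 (35.7%, 16.3 to 61.2), among them Nkx2-6 (3.92) and Nkx2-2 (3.20). Sine oculis and Iroquois homeobox factors were so in 4 of 12 (33.3%, 13.8 to 60.9), led by Irx2 (4.79), Six6 (4.71) and Six4 (2.63). LIM homeobox factors were so in 4 of 12, the same share, led by Lhx1 (3.98), Lhx9 (3.63) and Lmx1b (3.57). T-box factors were so in 5 of 16 (31.2%, 14.2 to 55.6), led by Tbx18 (4.55), Tbx15 (3.64) and Tbx21 (3.47). FOX factors were so in 7 of 44 (15.9%, 7.93 to 29.4), led by Foxe3 (4.77), Foxs1 (3.96) and Foxc1 (3.93). PAX factors were so in 1 of 9 (11.1%, 1.99 to 43.5), Pax1 (3.37). The intervals of the FOX and PAX factors include 7.99%. At the highest region of each gene, both replicates' lists held 1 of the 7 SOX, 1 of the 5 NKX and 1 of the 7 FOX genes. They held 2 of the 4 sine oculis and Iroquois genes, 1 of the 4 LIM genes, 2 of the 5 T-box genes and not Pax1. Of the sine oculis and Iroquois summits 0 lay within 150 bp of a TSS, and of the SOX summits 2 did.

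Among Hox cluster genes 5 of 39 were permissive-only (12.8%, 5.60 to 26.7, which includes 7.99%), led by Hoxc10 (4.06), Hoxc4 (3.69) and Hoxd1 (3.52), while 10 were thresholded and 24 had no peak. Hoxc10 and Hoxc4 were in neither replicate's list.

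Several families of signalling ligands also held permissive-only genes, and were set against the 7.99% of all genes. Wnt ligands were so in 6 of 19 cases (31.6%, 15.4 to 54.0), led by Wnt1 (3.98), Wnt5b (3.64) and Wnt9b (3.60), and none was in both replicates' lists. None of the 10 Frizzled genes, which encode Wnt receptors, was permissive-only (0%, up to 27.8), and 9 were thresholded. Fibroblast growth factors were so in 7 of 22 (31.8%, 16.4 to 52.7), led by Fgf2 (4.54), Fgf23 (4.17) and Fgf5 (3.94). Bone morphogenetic proteins were so in 4 of 11 (36.4%, 15.2 to 64.6), led by Bmp8b (3.60), Bmp3 (3.07) and Bmp7 (2.76). Both replicates' lists held 3 of the 7 fibroblast growth factor genes and 0 of the 4 bone morphogenetic protein genes.

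In the Notch pathway 5 of 19 genes were permissive-only (26.3%, 11.8 to 48.8) and 11 were thresholded. The ligand genes Dll3 (5.08), Dll4 (3.01) and Dll1 (2.42) and the target genes Heyl (4.22) and Hes5 (2.57) were the 5. Dll4 was in both replicates' lists, with 3.38 in replicate 1 and 2.82 in replicate 2. In the hedgehog pathway 3 of 14 were so (21.4%, 7.57 to 47.6, which includes 7.99%), among them the effector Gli3 (3.48) and the ligand Dhh (2.04).

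Families of matrix, adhesion and ion channel genes were also set against the 7.99% of all genes. Collagens were permissive-only in 13 of 44 cases (29.5%, 18.2 to 44.2), led by Col25a1 (5.45), Col1a2 (5.20) and Col6a2 (4.97), and 8 of the 13 were in both replicates' lists. Adhesion G protein-coupled receptors were so in 9 of 27 (33.3%, 18.6 to 52.2), led by Adgre1 (6.57), Adgrb3 (5.13) and Adgrg7 (5.12). Semaphorins and plexins were so in 8 of 29 (27.6%, 14.7 to 45.7), led by Plxnb1 (4.21), Sema5b (3.75) and Sema3e (3.52). Potassium channels were so in 22 of 92 (23.9%, 16.4 to 33.6), led by Kcng1 (5.25), Kcna7 (4.91) and Kcnmb2 (4.91). Calcium and sodium channels were so in 9 of 44 (20.5%, 11.2 to 34.5), led by Cacng8 (4.17), Cacna1d (4.06) and Cacna2d1 (4.03). Both replicates' lists held 6 of the 9 adhesion receptors and 1 of the 8 semaphorins and plexins. They held 7 of the 22 potassium channels and 3 of the 9 calcium and sodium channels.

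Large families near the share of all genes were solute carriers, with 36 of 361 (9.97%), led by Slc4a9 (6.40), Slc41a2 (5.95) and Slc17a6 (5.45). Zinc finger genes named Zfp had 25 of 391 (6.39%), led by Zfp541 (6.25), Zfp92 (5.93) and Zfp697 (5.04). Over the 19 lists, 14 had a share above 7.99% and 7 an interval wholly above it. Over the 35 families, 23 had a share above it, 16 an interval wholly above it and 4 an interval wholly below it. These sets differ in CpG content and overlap one another, and were read as counts without a test.

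**Figure D3:**
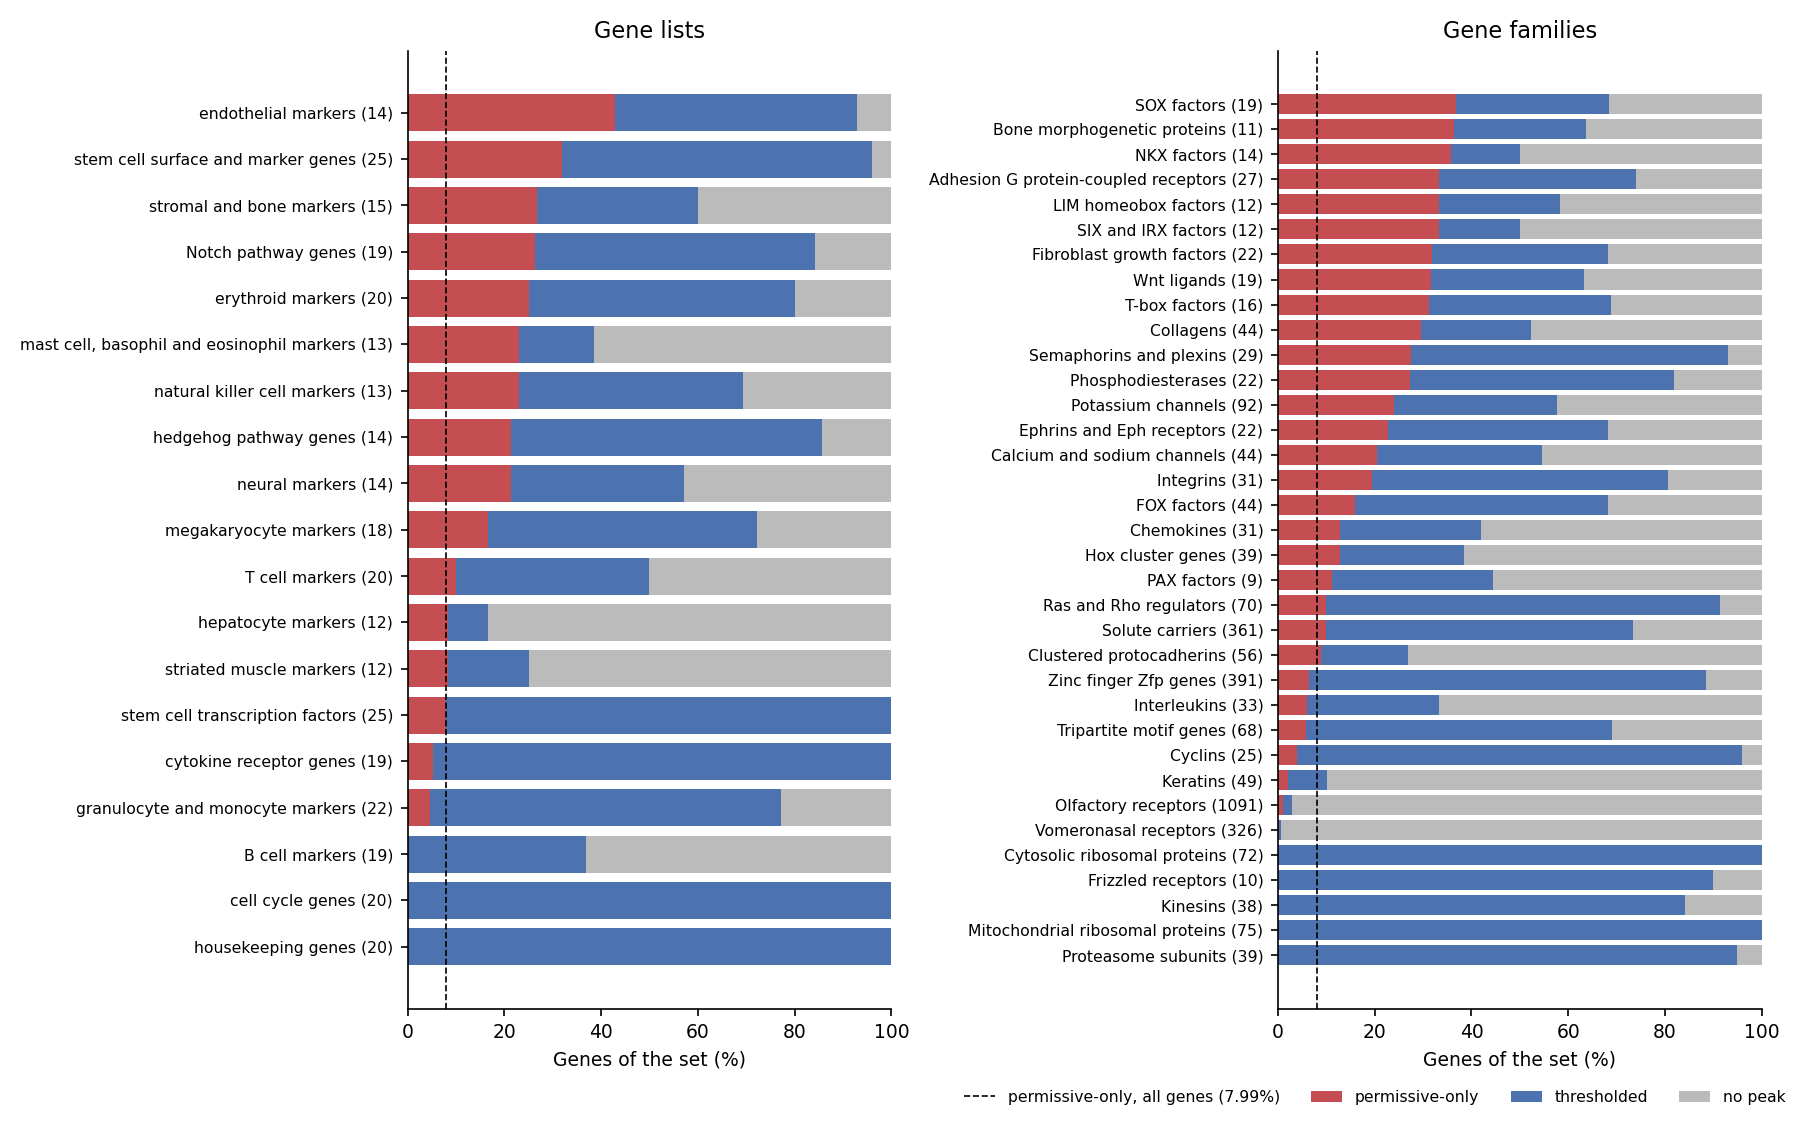
Percent of the genes of each list (left) and family (right) with permissive-only opening (red), a thresholded promoter peak (blue) or no promoter peak (grey), with the number of genes in brackets. The dashed line marks the 7.99% of all genes. Endothelial markers have the longest red bar at 42.9%, and SOX factors follow at 36.8%, while ribosomal, housekeeping and cell cycle genes have none.

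Members were less CpG-rich than thresholded promoter regions. A window was called CpG-rich when its ratio of observed to expected CG dinucleotides exceeded 0.6 and its GC content 50%. In the window of 150 bp to either side of the summit 47.9% of members were CpG-rich (46.4 to 49.4), against 70.8% of thresholded promoter regions. The median CpG ratio was 0.596 in members and 0.766 in thresholded promoter regions, and the median GC content was 60.8% and 62.8%. The 27524 permissive-only regions outside promoters had a median CpG ratio of 0.215, and 3.60% were CpG-rich. Members were 18.7% of CpG-rich promoter regions and 37.7% of CpG-poor ones.

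Counted by gene at the 5′-most TSS, the permissive-only share differed little with CpG content. Permissive-only genes were 7.96% of CpG-rich genes (844 of 10598) and 8.01% of CpG-poor genes (902 of 11255). Thresholded genes were 85.6% of CpG-rich and 31.5% of CpG-poor genes. Among genes without a thresholded promoter peak, the permissive-only share was 55.2% of CpG-rich genes (844 of 1528) and 11.7% of CpG-poor genes (902 of 7714). A gene CpG-rich at its 5′-most TSS that missed the thresholded lists was therefore more often found in the replicated list than a CpG-poor one. Class was taken over all TSSs of a gene, and 51.6% of genes with no peak had 1 TSS, against 36.6% of permissive-only genes. The part that the number of TSSs plays was not tested. By class, 48.3% of permissive-only genes, 71.9% of thresholded genes and 9.12% of genes with no peak were CpG-rich.

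**Figure D4:**
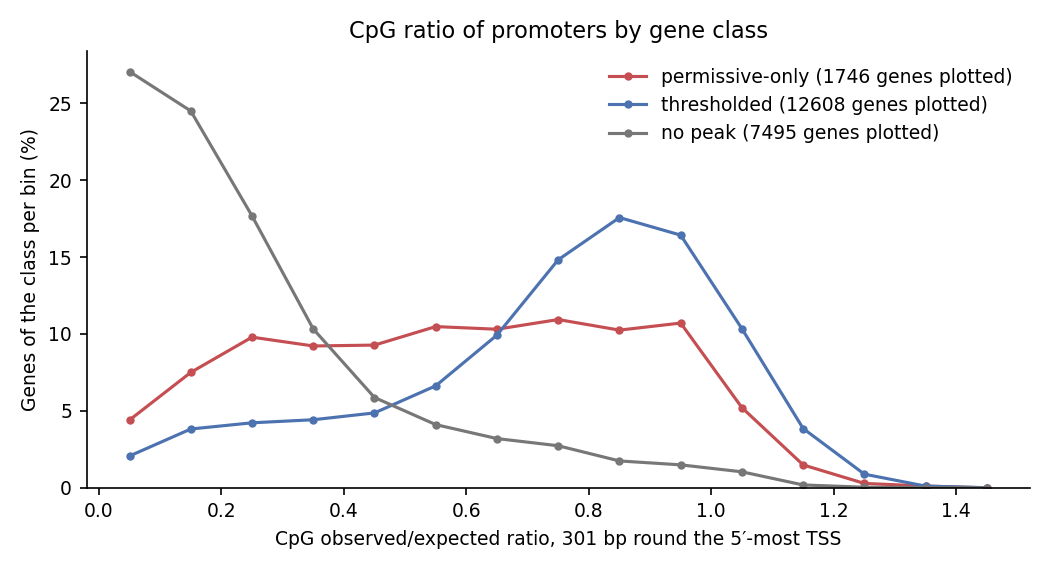
Distribution of the CpG ratio within 150 bp of the 5′-most TSS (x), as the percent of genes of each class per bin (y), up to a ratio of 1.5. Permissive-only genes spread over the range, thresholded genes gather at high ratios and genes with no peak at low ones.

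The members of highest signal were the least CpG-rich. Split into 4 equal groups by signal, from the lowest to the highest, 50.4%, 52.1%, 47.0% and 42.0% were CpG-rich. Of the 122 members above the median signal of the replicated list 28.7% were CpG-rich (21.4 to 37.3). Position moved the other way, with 27.5% of the lowest and 49.6% of the highest group lying within 150 bp of a TSS. Presence in both replicates' lists was 6.93% in the lowest group and 59.6% in the highest. The rule removed regions that passed a threshold, so these trends hold among members only. What that removal adds to them was not tested.

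Motifs of factors that bind CpG-island promoters were rarer in CpG-rich members than in CpG-rich thresholded regions. Motifs were searched as exact letters on both strands, and a match does not show that a factor was bound. The ETS motif CCGGAAG was in 4.84% of CpG-rich members (4.01 to 5.84), against 21.5% of CpG-rich thresholded windows, and in 11.5% of all promoters at the 5′-most TSS. The NRF1 motif GCGCANGCG was in 6.06%, against 16.4%, and in 8.37% of all promoters. The CCAAT box, with the letters CCAAT, was in 17.6%, against 37.6%, and in 36.4% of all promoters. The core TGACGT of the cyclic AMP response element (CRE), which is part of its full site TGACGTCA, was in 4.23%, against 14.1%, and in 8.30% of all promoters. The YY1 motif AAGATGGC was in 1.5%, against 5.69%, and in 3.53% of all promoters. The GC box GGGCGG, bound by SP and KLF factors, differed less, at 67.2% of CpG-rich members, 76.1% of CpG-rich thresholded windows and 46.3% of all promoters. Over all members, CCAAT was in 23.8% of summit windows and 31.4% of windows centred 500 bp away, and in 39.2% of promoters with no peak. YY1 was in 1.28% and 1.26% of the summit and displaced windows. The other 4 were lower 500 bp away: ETS at 4.25% and 2.70%, NRF1 at 3.42% and 1.08%, the CRE core at 3.89% and 3.29%, and the GC box at 45.0% and 17.2%.

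Since members lay farther from the TSS, the same count was made in CpG-rich windows with the summit within 150 bp of a TSS, a choice made after the data were seen. Of 937 such member windows 4.80% had the ETS motif (3.61 to 6.37), against 24.0% of 7289 thresholded windows. In the 1823 of those thresholded windows in the lowest quartile of signal it was in 14.8% (13.3 to 16.5). That quartile had a median signal of 6.02 and the members 3.67, so the groups still differed in signal. The CCAAT box was in 18.8% of members, 25.9% of that lowest quartile and 39.1% of all thresholded windows, and NRF1 in 8.54%, 14.8% and 17.7%. The GC box was in 77.6% of members (74.8 to 80.1), 79.9% of the lowest quartile and 76.7% of all thresholded windows, so here the 3 groups lay close together. Any of the 5 motifs ETS, NRF1, CCAAT, the CRE core and YY1, grouped after their shares were seen, was in 34.3% of members near a TSS and 71.5% of thresholded windows. These shares come from windows chosen by signal, and the part that signal or peak width plays in them was not tested.

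**Figure D5:**
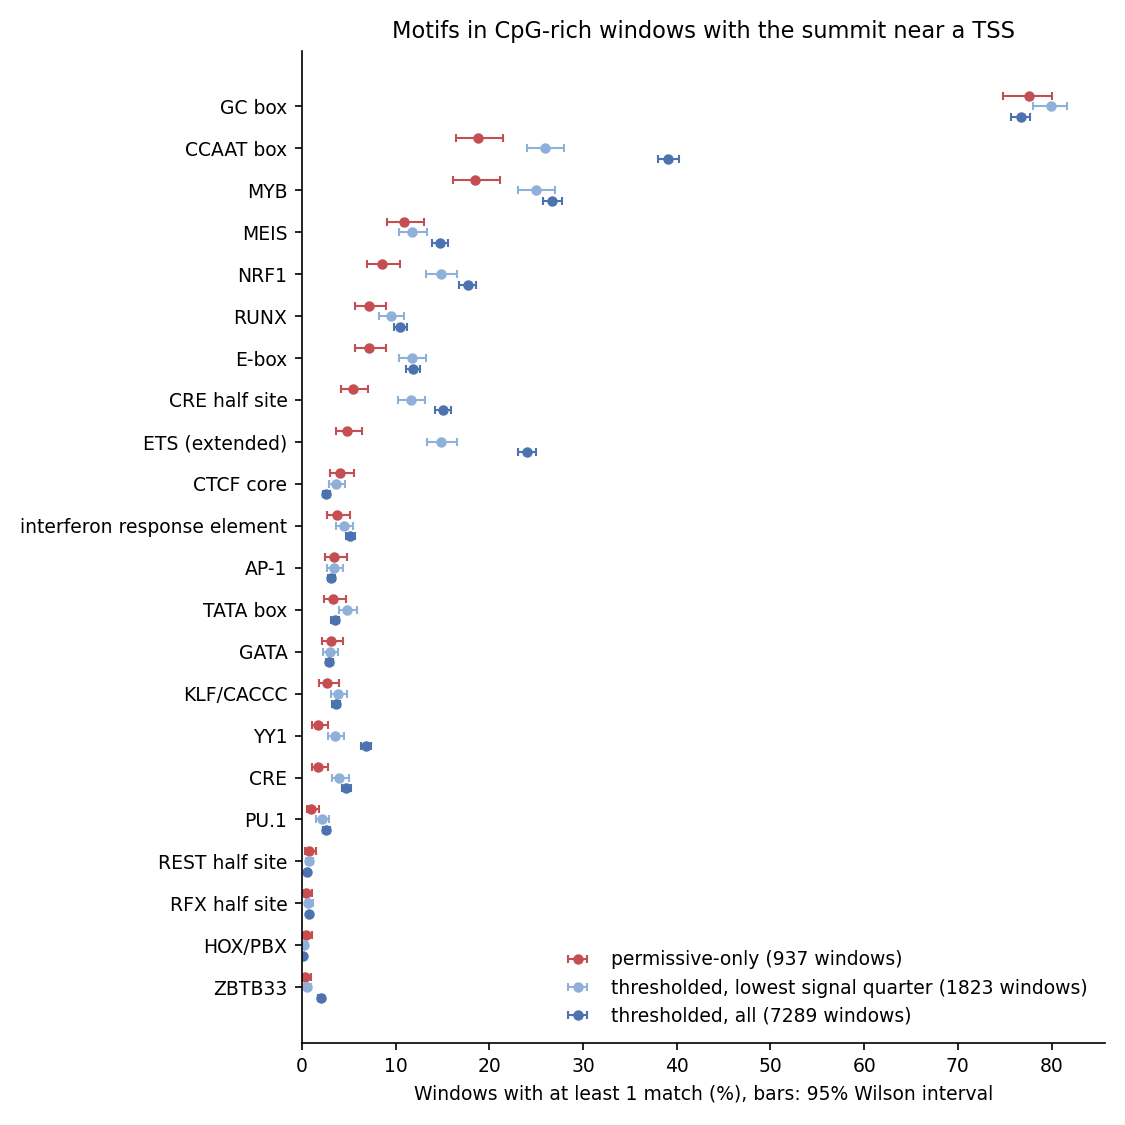
Percent of CpG-rich windows with the summit within 150 bp of a TSS that held each of 22 motifs (x), with 95% Wilson intervals, for permissive-only regions (red), thresholded regions of the lowest signal quartile (light blue) and all thresholded regions (dark blue). ETS, CCAAT and NRF1 are lowest in permissive-only windows, and the GC box is at a like share in all 3 groups.

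In CpG-poor windows the RUNX, GATA and AP-1 motifs were about as frequent in members as in thresholded regions. The ETS motif was less frequent in members, and the PU.1 motif was lower with intervals that overlap. These windows were not matched for position or signal. The RUNX motif TGTGGT was in 24.3% of 2315 CpG-poor members (22.6 to 26.1) and 23.2% of 3818 CpG-poor thresholded windows, and in 14.7% of all promoters. The GATA motif AGATAA was in 10.6% and 10.2%, and in 8.13% of all promoters. The AP-1 motif TGANTCA was in 8.86% and 8.67%, and in 5.82% of all promoters. The PU.1 motif GAGGAAGT was in 6.09% (5.19 to 7.14) and 7.86% (7.05 to 8.75), and in 3.02% of all promoters. The ETS motif was in 3.71% and 7.54% of these windows. All promoters include CpG-rich ones, and at genes with no peak, most of them CpG-poor, RUNX was in 19.8%, GATA in 14.1%, AP-1 in 8.66% and PU.1 in 3.01% of promoters. Over all members, GATA was in 7.14% of summit windows and 11.9% of windows 500 bp away, AP-1 in 6.17% and 7.34%, RUNX in 16.3% and 17.0%, and PU.1 in 3.98% and 1.96%. The TATA box TATAAA was in 7.6% of CpG-poor members and 7.10% of CpG-poor thresholded windows, and in 10.6% of all promoters. Over all members it was in 5.04% of summit windows and 12.6% of windows 500 bp away.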

How the data were processed

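Peak lists of 2 ATAC-seq libraries of haematopoietic stem cells were used, in mm10 coordinates per the labels. Each peak carries a signal as deposited, whose control and scaling are unstated, and ranked peaks carry an IDR score set by the authors. How the lists were constructed is known from their names alone. The aligner and peak caller are not given in these sources, and read depth is unknown. From 2 ranked lists 16 columns of per-input values were not used.

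Overlapping peaks were merged, and summits were assigned to all TSSs of 21853 protein-coding genes of GENCODE M21 on 21 chromosomes. A gene was thresholded when any of the 4 thresholded lists had a peak within 1 kb of a TSS. Sequence came from GRCm38.p6, the mm10 primary chromosomes, through pysam 0.24.0 in Python 3.11.15 with numpy 2.4.6 and pandas 2.3.3. The motifs not named with their letters in the results were CACGTG (E-box), AGGGGGCGC (CTCF), TCTCGCGAG (ZBTB33), AACGG (MYB), TGACAG (MEIS), TGATTTAT (HOX/PBX) and GTTGCCATG (RFX). Shares have 95% Wilson intervals. Merging, overlap and TSS assignment were checked on simulated intervals. With 1 group and members chosen by readout, no test was made.

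The members, the 19 lists and the 35 families were chosen with earlier results of these data known. The CpG cut, the 150 bp cut and the signal groups were set after the files were seen. Named were the 10 highest and 5 lowest members, the 5 on each side of the threshold, the 5 genes with most members, every permissive-only gene of a list up to 8 and the 3 of highest signal in a family. Some genes that this rule names are not reported here.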

Additional observations from a re-analysis of the deposited data

How the results depend on the processing

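The number of members was 4442 and stayed within 1.5 times of this under a promoter window of 500 or 2500 bp, the 5′-most TSS only, an overlap of at least 0.5 of the region for removal, removal by the conservative list only, the pooled pseudoreplicated list, merging within 150 bp and without either replicate (5862 to 6447). It was 122 when the signal had to exceed the median of the replicated list. The number of permissive-only genes was 92 under that setting, 2847 with the conservative list only and 2412 to 3488 without a replicate, the highest without replicate 1. Requiring a signal above the median of the replicated list moved the median signal to 5.85, a rise that the filter itself fixes. The same filter moved the GC content to 54.7% and the CpG ratio to 0.397. It also moved the share at genes with a thresholded promoter, which was 52.8%, to 28.7%. That share was 41.0% with a window of 500 bp, 39.8% with the 5′-most TSS and 35.2% to 48.8% without a replicate. With a window of 2500 bp the GC content was 57.5% and the CpG ratio 0.5, and with sequence of 500 bp to either side of the summit the GC content was 57.9%. The median signal was 3.85 to 4.38, the GC content 58.8% to 62.1% and the CpG ratio 0.569 to 0.656 without a replicate. All 22 motif shares were lower with sequence of 50 bp to either side, which holds fewer letters, and 12 fell beyond their interval in windows 500 bp from the summit while 6 exceeded it. Restricting to summits within 150 bp of a TSS, chosen after seeing the data, moved 6 shares up and 4 down. No paired analysis was possible because there is 1 group. Read depth is unknown, so weak opening and shallow sampling cannot be told apart.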
